A study of Gallus gallus with 6 samples.

Results

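The genes described here make, carry, read and respond to thyroid hormone in chicken liver. They are the deiodinases DIO1, DIO2 and DIO3, the plasma carrier TTR, the nuclear receptors THRA and THRB, and the thyroid hormone responsive genes THRSP and THRSPB. Each was looked up by symbol in a RefSeq gene table of the chicken and taken from the expression table by its NCBI Gene ID, and 8 of the 8 genes were found among 20498 listed genes. Liver mRNA of 6 F1 male birds at 36 weeks of age was sequenced, with 1 library per bird. The birds belonged to the Jingxing-Huang (JXH) line, a cultivated dwarf chicken, and all 6 were raised on the basal diet. The 3 control birds had non-fatty liver and descended from parents kept on the basal diet. The other 3 birds, with fatty liver, were of the paternal inheritance group, in which sires with fatty liver after a high-fat diet were mated to hens without fatty liver, hens that had been given the same diet. Fatty liver, paternal descent and the high-fat diet of both parents came together in these libraries and cannot be told apart. The labels do not name the sire of each bird.

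The thyroid gland releases mainly thyroxine (T4), and the tissues turn it into the more active triiodothyronine (T3) or into inactive products. DIO2 takes an iodine from the outer ring and forms T3, DIO3 takes one from the inner ring and inactivates both T4 and T3, and DIO1 can act on either ring. All 3 are selenoproteins, with a selenocysteine in the active site. In chicken liver, DIO1 and DIO3 are the well known enzymes. Hepatic DIO3 is known to rise when chickens are fasted and to fall when they are fed again or given growth hormone. T3 acts through THRA and THRB, which bind DNA with a retinoid X receptor. THRSP, also called Spot 14, is a small nuclear protein of fat-synthesizing tissues. It is induced by T3 and by carbohydrate feeding in the rat, and the chicken has a pair of copies of it.

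Expression was deposited as FPKM, fragments of a gene relative to its exon length and to all mapped fragments of the library, so that levels can be compared per length between genes. The whole fragments behind the values were worked out from them. The libraries held between 8860634 and 10403637 fragments, and 3 fragments in a library were taken as the floor. A gene was tested if its mean was at least 1 FPKM over the 6 libraries, which left 10886 genes. The test was limma on log2(FPKM + 1) with Benjamini-Hochberg adjusted p-values, and a gene passed at an adjusted p under 0.05. Fold changes are fatty liver minus control on the log2(FPKM + 1) scale, which understates the change of low genes. Over all tested genes the median was 0.12, and it was -0.01 after the libraries were rescaled without their 50 most abundant genes. Hepatocyte markers summed to between 119922 and 149073 FPKM in every library, while the 5 thyroid follicular cell markers in the table summed to at most 0.156 FPKM. The summed markers of all 11 cell types examined overlapped between the groups. Of 48 tested marker genes 1 passed, where 1.14% of all tested genes did. It was SOX9, a marker of bile duct cells, whose log2 fold change was 1.55 (limma adjusted p = 0.038). In bulk liver, fewer cells of a type and less RNA per cell cannot be told apart.

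DIO3, the inactivating deiodinase, was the member that differed most, with clear expression in the control livers and next to none in the fatty livers. Its level in control replicates 1, 2 and 3 was 10.8, 81.0 and 48.2 FPKM, from 155, 994 and 646 fragments. In fatty liver replicates 1, 2 and 3 it was 0.217, 0.15 and 0.143 FPKM, from 3, 2 and 2 fragments. All 3 fatty livers were thus at the floor, no control was near it, and the groups did not overlap. With each fatty liver library set to the floor, the mean level was at least 213-fold lower in fatty liver. The lowest control bird was still at least 47.8-fold above the highest floor among the fatty livers. The control birds themselves were spread widely, from the lowest to the highest by 7.53-fold. In limma DIO3 fell by 4.95 on the log2(FPKM + 1) scale (standard error 0.61, adjusted p = 0.015), a fitted value that depends on the pseudocount and is no bound. The adjusted p was 0.056 without fatty liver replicate 2 and 0.055 without fatty liver replicate 3. It was 0.07 without the filter on low values and 0.11 with limma's voom on the fragments, where the direction was the same. The standard error with voom, on another scale, was 1.80. The fatty livers, at the floor, hardly varied on log2(FPKM + 1), so the pooled standard error of 0.61 understates the control spread. DIO3 entered the test through the controls, since each fatty liver was under 1 FPKM.

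**Figure D1:**
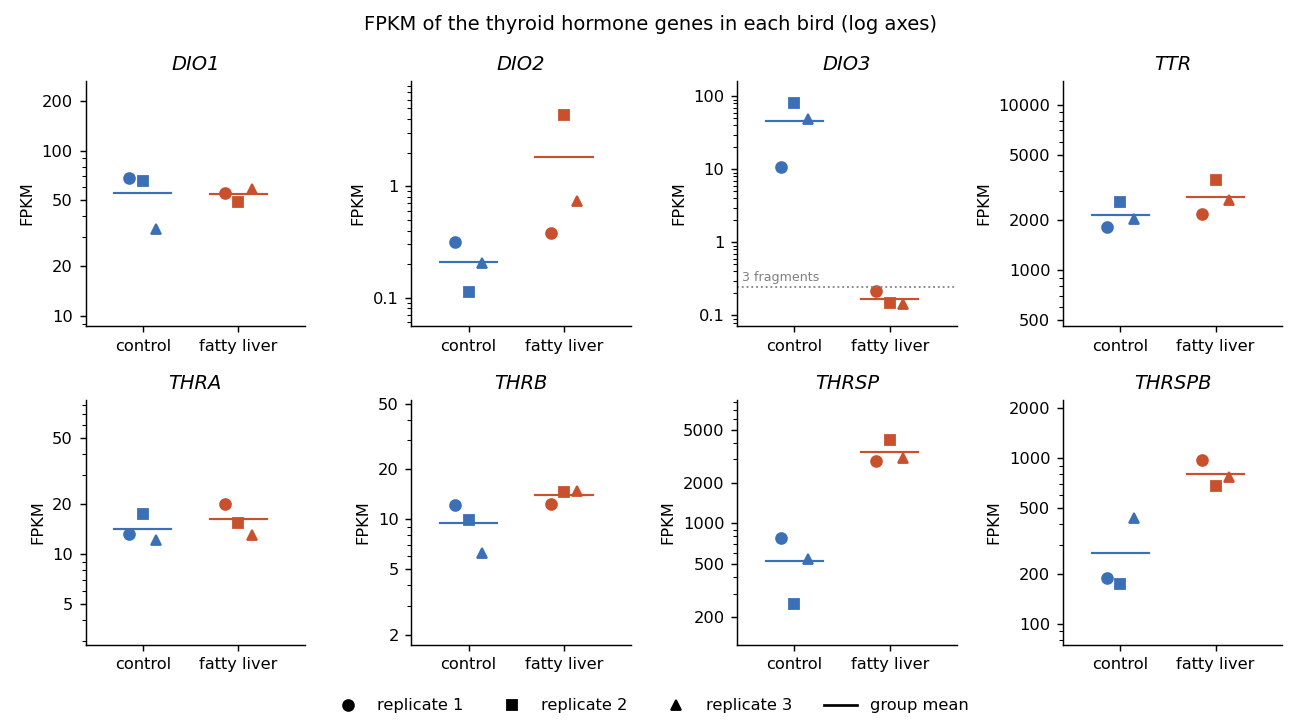
FPKM of the 8 genes in each of the 6 birds on log axes, with control birds in blue, birds with fatty liver in red, a symbol for each replicate and a line at the group mean. The dotted line in the DIO3 panel is the highest level that 3 fragments give in any of the 6 libraries, and the 3 fatty livers lie below it, whereas THRSP and THRSPB lie above the controls in each fatty liver.

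DIO1, the deiodinase that can act on either ring, overlapped between the groups. It had 68.4, 65.3 and 33.5 FPKM in control replicates 1, 2 and 3 and 55.3, 49.2 and 58.4 FPKM in fatty liver replicates 1, 2 and 3. The fatty livers lay within the range of the controls. The log2 fold change was 0.03 (standard error 0.27, limma adjusted p = 0.97), and its sign turned when the libraries were rescaled, where it was -0.14. The proportion of DIO1 to DIO3 was also read within each bird. DIO1 was 6.36, 0.806 and 0.694 times DIO3 in control replicates 1, 2 and 3, in FPKM over FPKM. In fatty liver replicates 1, 2 and 3 it was at least 255, 219 and 272 times DIO3, with DIO3 set to the floor. Control replicate 1 was the only control with clearly more DIO1 than DIO3.

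DIO2, which forms T3, was the scarcest member in control livers. It had 0.316, 0.111 and 0.204 FPKM in control replicates 1, 2 and 3, from 20, 6 and 12 fragments. In fatty liver replicates 1, 2 and 3 it had 0.378, 4.40 and 0.733 FPKM, from 23, 258 and 45 fragments. Each fatty liver was above each control, but the lowest fatty liver was close to the highest control and fatty liver replicate 2 stood far above the rest. The log2 fold change was 0.96 (standard error 0.47, limma adjusted p = 0.36), and without fatty liver replicate 2 it was 0.36 (adjusted p = 0.59). DIO2 entered the test through that library, since the mean of the other 5 libraries was 0.348 FPKM. Fatty liver replicate 2 also had the highest sums of 4 adipocyte markers and of 4 erythroid markers in the table, at 72.5 and 1896 FPKM. In the other libraries the adipocyte sum was between 4.76 and 45.4 FPKM and the erythroid sum between 932 and 1325 FPKM. Their part in the DIO2 value was not tested.

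TTR, which carries thyroid hormone in the blood, was among the most abundant transcripts of the liver. It had 1828, 2588 and 2041 FPKM in control replicates 1, 2 and 3 and 2195, 3506 and 2660 FPKM in fatty liver replicates 1, 2 and 3. The groups overlapped, at 2152 ± 392 FPKM (SD, n = 3 birds) in the controls and 2787 ± 664 FPKM in the fatty livers. The log2 fold change was 0.36 (standard error 0.22, limma adjusted p = 0.46). In the RefSeq gene table, made for another assembly, the span of another protein-coding locus, LOC112531842, overlaps that of TTR. Overlap of exons was not examined, and no use of strand in the counting is stated. Whether fragments of the pair were mixed is therefore not known. ALB, the albumin that also binds thyroid hormone in plasma, was the other carrier in the table. It had a log2 fold change of -0.50 (adjusted p = 0.15) and did not overlap between the groups. Of these 2 carriers 0 passed in limma or with voom, where 124 and 98 of all 10886 tested genes did. An unadjusted p under 0.05 was found for 1 of them, and for 16.3% of all tested genes.

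The receptor genes were expressed at similar moderate levels. THRA had 13.2, 17.5 and 12.1 FPKM in control replicates 1, 2 and 3 and 20.1, 15.4 and 13.1 FPKM in fatty liver replicates 1, 2 and 3. These ranges overlapped, and the log2 fold change was 0.17 (standard error 0.21, adjusted p = 0.74 in limma). THRB had 12.2, 9.92 and 6.23 FPKM in control replicates 1, 2 and 3 and 12.4, 14.5 and 14.9 FPKM in fatty liver replicates 1, 2 and 3. All the fatty livers were above the controls, by a narrow gap. The log2 fold change of THRB was 0.56 (standard error 0.23, adjusted p = 0.29), and it was 0.40 (adjusted p = 0.48) after rescaling. A lncRNA locus, LOC121109993, overlaps THRB in the gene table. The ratio of THRB to THRA was 0.928, 0.568 and 0.514 in control replicates 1, 2 and 3 and 0.618, 0.946 and 1.14 in fatty liver replicates 1, 2 and 3, so the ratios of the groups overlapped.

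THRSP rose in the fatty livers and there became one of the most abundant liver transcripts. It had 775, 251 and 540 FPKM in control replicates 1, 2 and 3 and 2923, 4186 and 3067 FPKM in fatty liver replicates 1, 2 and 3. The lowest fatty liver was far above the highest control. By its mean level THRSP ranked 145 of 20498 genes in control and 20 in fatty liver. The mean was 6.50 times as high in fatty liver, and the log2 fold change was 2.82 (standard error 0.38, limma adjusted p = 0.020). The adjusted p was 0.078 without fatty liver replicate 2 and 0.064 without fatty liver replicate 3. It was 0.081 without the filter on low values, 0.054 with voom, 0.063 with libraries scaled to the same median and 0.0499 after rescaling, with the same direction in each.

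THRSPB, the paralog of THRSP, had 189, 173 and 436 FPKM in control replicates 1, 2 and 3 and 972, 675 and 767 FPKM in fatty liver replicates 1, 2 and 3. Again no fatty liver was as low as the highest control. The mean was 3.02 times as high in fatty liver, and the log2 fold change was 1.71 (standard error 0.35, limma adjusted p = 0.067). Without control replicate 3, the control with the highest THRSPB, the adjusted p was 0.014. Leaving out any other library gave an adjusted p between 0.13 and 0.17. It was 0.11 after rescaling and 0.098 with voom. THRSP was 4.11, 1.45 and 1.24 times THRSPB in control replicates 1, 2 and 3 and 3.01, 6.20 and 4.0 times in fatty liver replicates 1, 2 and 3. The ratios of the groups overlapped, and whether the pair changed to a different degree was not tested. Fragments shared by the copies could have been counted for either, which makes the split between them uncertain. Among the controls, the bird with the lowest DIO3 had the highest THRSP (replicate 1), and the bird with the highest DIO3 had the lowest THRSP (replicate 2). THRSPB was also lowest in replicate 2 but highest in replicate 3, whose DIO3 lay between the others. With 3 birds these orders, read after the values were seen, are a description only.

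The order of the levels differed between the groups at both ends. In control livers the order by mean FPKM was TTR, THRSP, THRSPB, DIO1, DIO3, THRA, THRB and DIO2. The ranges of THRSP and THRSPB, of DIO1 and DIO3, and of THRA and THRB overlapped between birds. Within each control bird, THRSP was nevertheless above THRSPB and THRA above THRB, while DIO1 was above DIO3 in 1 of 3. These differences between genes were not tested. DIO3 reached down to 10.8 FPKM and so overlapped THRB, whose highest control was 12.2 FPKM, and it fell below THRA in that bird. In fatty livers the order was THRSP, TTR, THRSPB, DIO1, THRA, THRB, DIO2 and DIO3. There the ranges of THRSP and TTR and those of THRA and THRB overlapped, while DIO2 was above DIO3 in each bird. DIO3 was thus at rank 1172 of 20498 genes in control and at 13688 in fatty liver.

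Of the 8 members, 2 passed the test, DIO3 lower and THRSP higher, where 1.14% of all tested genes passed in either direction, 0.294% lower and 0.845% higher. The groups did not overlap in 5 members, of which DIO2, THRB, THRSP and THRSPB were higher and DIO3 was lower. The share of tested genes without overlap was 23%, with 18.3% higher and 4.78% lower in fatty liver. The log2 fold change was above 0 in 7 of the 8 members and in 67.2% of all tested genes. For a single gene the two-sided exact permutation test gave p = 0.1 for each of these 5 members, the smallest p that 3 birds against 3 allow. Relative to the median of all tested genes, the log2 fold change was -5.07 for DIO3, 2.70 for THRSP, 1.59 for THRSPB, 0.84 for DIO2, 0.43 for THRB, 0.24 for TTR, 0.05 for THRA and -0.09 for DIO1.

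**Figure D2:**
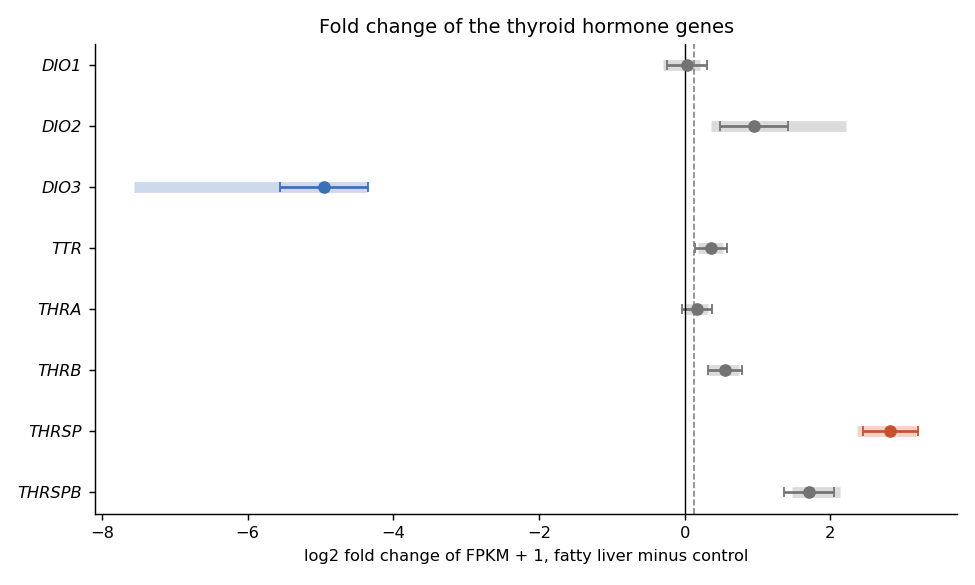
Log2 fold change of FPKM + 1 (fatty liver minus control) for the 8 genes, with points for limma on the 6 libraries, error bars of 1 standard error, pale bars for the range over the 15 alternatives, a solid line at 0 and a dashed line at the median of all tested genes (0.12). DIO3 (blue) passed as lower and THRSP (red) as higher, and the other 6 (grey) did not pass. The pale bars of DIO2 (up to 2.22) and DIO3 (down to -7.56) run far from 0 because a smaller pseudocount and voom use another scale. The lower end of the DIO2 bar, 0.36, is the fit without fatty liver replicate 2.

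The rest of the pathway was followed in lists of genes for each step. Membrane transporters bring T4 and T3 into the cell. Of 8 tested transporter genes 0 passed in limma and 0 with voom. Of all 10886 tested genes 1.14% passed in limma and 98 genes with voom, so 0 of 8 is near the share of all genes. An unadjusted p under 0.05 was found for 3 of the 8, against 16.3% of all tested genes. The median log2 fold change of the list was -0.08, against 0.12 for all tested genes. SLCO1A2, an organic anion transporter, had the highest level, with 124 ± 37.7 FPKM (SD, n = 3 birds) in the controls and 145 ± 16.6 FPKM in the fatty livers. SLCO2B1, of the same family, had the smallest p, with 70.9 ± 6.52 FPKM in the controls and 42.9 ± 6.58 FPKM in the fatty livers (a log2 difference of -0.72, adjusted p = 0.097). SLC16A10 (MCT10), which carries T3 and aromatic amino acids, was singled out after its values were seen. It had 23.0 ± 6.27 FPKM in the controls and 13.5 ± 2.78 FPKM in the fatty livers, without overlap (adjusted p = 0.21). SLCO1C1 and SLC10A1 were listed at 0 in all 6 libraries, and whether they were not expressed or not counted under their gene IDs cannot be told apart.

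Inside the cell, T3 meets its receptors and their partners, and the hormone is removed by sulfation and glucuronidation. All 4 tested receptor genes, THRA, THRB, RXRA and RXRG, had log2 fold changes above 0, with a median of 0.40 (0.25 after rescaling). Of them 0 passed in limma or with voom, where 1.14% of all tested genes passed in limma. An unadjusted p under 0.05 was found for 2 of the 4, and for 16.3% of all tested genes. RXRA, a dimer partner of the receptors, had 10.8 ± 1.22 FPKM in the controls and 15.0 ± 1.60 FPKM in the fatty livers (a log2 difference of 0.45, adjusted p = 0.22), and RXRG had the highest mean level, with 15.3 ± 4.0 and 19.8 ± 3.92 FPKM. Of 13 coregulator genes 0 passed with either tool, against 1.14% of all tested genes in limma. Among the 13, 2 had an unadjusted p under 0.05, a share near the 16.3% of all tested genes. Their median log2 fold change was 0.01, and -0.12 after rescaling. KAT2B, an acetyltransferase and coactivator, had both the highest level and the smallest p of that list, at 16.7 ± 5.92 FPKM in the controls and 40.9 ± 5.28 FPKM in the fatty livers (a log2 difference of 1.30, adjusted p = 0.068). Of 9 genes of conjugation and cytosolic binding 0 passed with either tool (1.14% of all tested genes in limma). Among the 9, 1 had an unadjusted p under 0.05 (16.3% of all tested genes). The median log2 fold change of the 9 was 0.14, or -0.02 after rescaling. In that list SULT1E1, a sulfotransferase, had 52.6 ± 11.2 and 83.5 ± 11.2 FPKM in the controls and fatty liver (adjusted p = 0.17), and UGT1A1, a glucuronosyltransferase, had 169 ± 46.9 and 218 ± 28.9 FPKM (adjusted p = 0.44).

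**Figure D3:**
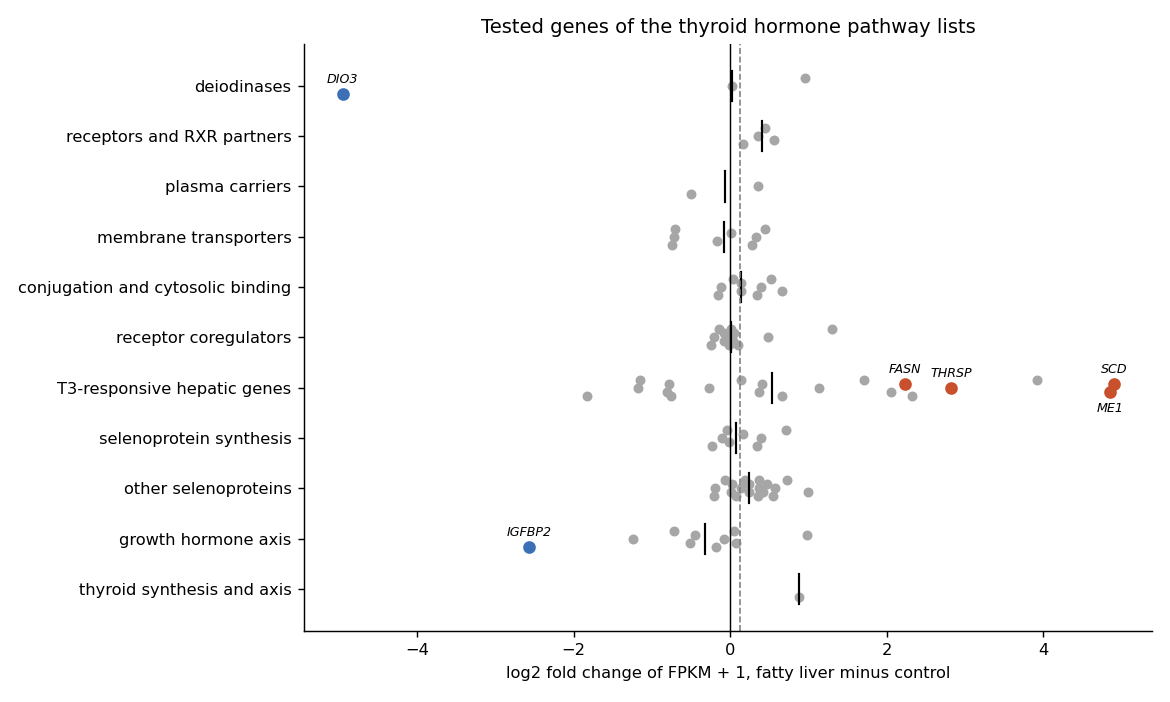
Log2 fold change of FPKM + 1 (fatty liver minus control) for the tested genes of 11 lists of the thyroid hormone pathway, each point a gene, with a short black bar at the median of the list and a dashed line at the median of all tested genes (0.12). Coloured and labelled points had an adjusted p under 0.05 in limma, namely DIO3 and IGFBP2 lower and THRSP, FASN, SCD and ME1 higher, and the vertical offset within a list has no meaning.

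Genes known to respond to T3 in chicken or mammalian liver cells held 4 of the 6 calls among the listed genes. Of 20 tested genes 4 passed, against 1.14% of all tested genes in either direction and 0.845% higher. All 4, namely THRSP, ME1, FASN and SCD, were higher in fatty liver. An unadjusted p under 0.05 in limma was found for 14 of the 20, against 16.3% of all tested genes. ME1, the malic enzyme that supplies NADPH, is a classical T3 target in chick embryo liver cells, FASN builds fatty acids and SCD desaturates them. With voom, 3 of the 4 passed and THRSP did not, and after rescaling all 4 passed. The list holds genes that were known from earlier results of these data, so these counts describe them and are no independent evidence. The median log2 fold change was 0.53, against 0.12 for all tested genes, with 13 values above 0 and 7 below. The groups did not overlap in 9 of the 20 genes with higher and in 2 with lower values in fatty liver, against 18.3% and 4.78% of all tested genes. The 2 lower genes, named after their values were seen, were PDK4, which restrains pyruvate oxidation, and PPARGC1A, a coactivator of energy metabolism. PDK4 had 273 ± 9.46 FPKM in the controls and 126 ± 43.1 FPKM in the fatty livers (adjusted p = 0.068), and PPARGC1A had 5.75 ± 1.96 and 2.97 ± 1.22 FPKM (adjusted p = 0.25). Among the 9 higher genes were FABP1 and ACACA, also named after their values were seen. FABP1 had 5.07 ± 6.52 FPKM in the controls and 73.0 ± 41.7 FPKM in the fatty livers (adjusted p = 0.062). ACACA had 27.0 ± 15.4 and 101 ± 17.7 FPKM (adjusted p = 0.076). APOA1, the main protein of HDL and the most abundant gene of the list, had 20410 ± 8806 FPKM in the controls and 41671 ± 1221 FPKM in the fatty livers (adjusted p = 0.13). KLF9, a direct T3 target in many vertebrate tissues and also named after its values were seen, had 7.80 ± 2.82 and 4.02 ± 1.67 FPKM with overlapping groups (adjusted p = 0.26).

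**Figure D4:**
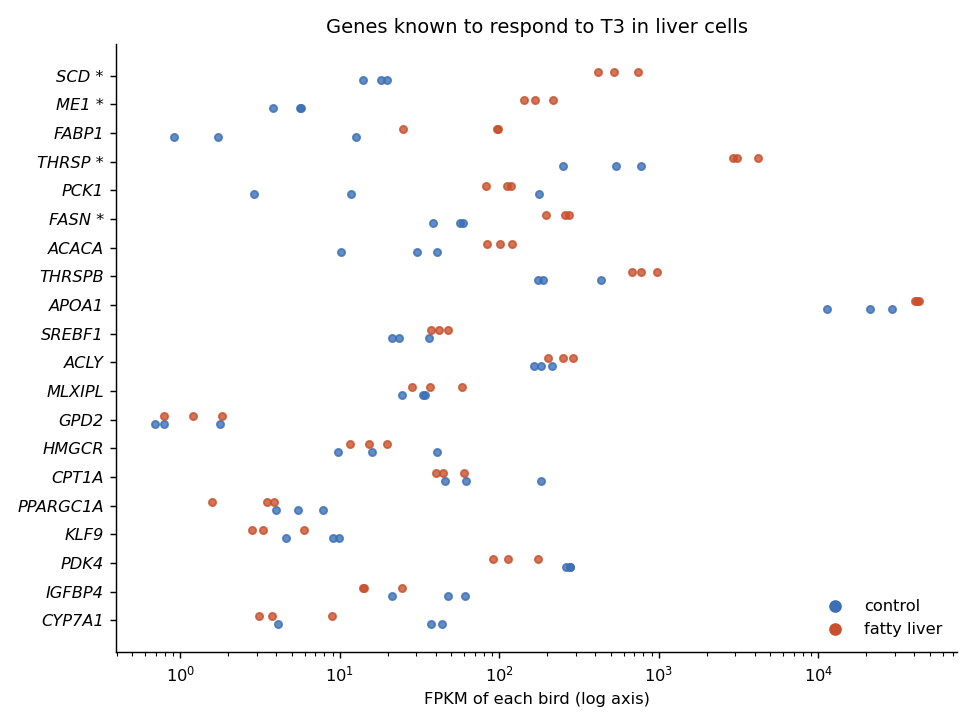
FPKM of each bird (log axis) for the 20 tested genes of the T3-responsive list, with control birds in blue and birds with fatty liver in red, ordered by log2 fold change from the lowest at the bottom. Stars mark the 4 genes with an adjusted p under 0.05 (SCD, ME1, THRSP and FASN), and CYP7A1 and PCK1 show 1 control bird that lies with the fatty livers or above them.

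Deiodinases need the machinery that inserts selenocysteine, and they share it with all other selenoproteins. Of 8 tested genes of that machinery 0 passed in limma or with voom, where 1.14% of all tested genes passed in limma. Among the 8, 1 had an unadjusted p under 0.05 (16.3% of all tested genes). The median log2 fold change of the 8 was 0.08, or -0.07 after rescaling. SECISBP2L, related to the protein that binds the selenocysteine insertion element, had the smallest p, with 6.93 ± 1.12 FPKM in the controls and 12.0 ± 1.43 FPKM in the fatty livers (a log2 difference of 0.71, adjusted p = 0.095). TRNAU1AP, which binds the selenocysteine tRNA, had the highest level, at 12.7 ± 4.57 and 10.4 ± 1.87 FPKM. Of 19 other selenoproteins 0 passed with either tool, against 1.14% of all tested genes in limma. Among the 19, 3 had an unadjusted p under 0.05, again a share near the 16.3% of all tested genes. Their median log2 fold change was 0.24, with 16 values above 0 and 3 below, and after rescaling it was 0.08, with 12 above and 7 below. GPX3, a glutathione peroxidase, was the most abundant, with 2118 ± 879 FPKM in the controls and 2650 ± 381 FPKM in the fatty livers, and MSRB1, a methionine sulfoxide reductase, had the smallest p, with between 52.6 and 72.4 FPKM in the controls and between 91.1 and 113 FPKM in the fatty livers (adjusted p = 0.10). DIO3 was the only selenoprotein gene on these lists that passed.

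Growth hormone is known to lower hepatic DIO3 in chickens, and genes of its axis were therefore listed. Among them are its receptor, signalling genes, insulin-like growth factor 1 (IGF1) and binding proteins, and not all are growth hormone targets. GHR, the growth hormone receptor, was named after its values were seen and had 63.5 ± 7.15 FPKM in the controls and 67.1 ± 8.62 FPKM in the fatty livers, with overlapping groups (limma adjusted p = 0.87). CISH, a signalling gene also named after its values were seen, had 10.2 ± 0.953 FPKM in the controls. In the fatty livers it had 5.84 ± 0.703 FPKM, without overlap (limma adjusted p = 0.078). Of 10 tested genes 1 passed, against 1.14% of all tested genes in either direction and 0.294% lower. The gene was IGFBP2, a binding protein of insulin-like growth factors, which was lower in fatty liver. It had 3.42, 6.27 and 15.4 FPKM in control replicates 1, 2 and 3 and 0.216, 0.504 and 0.375 FPKM in fatty liver replicates 1, 2 and 3, from 4, 9 and 7 fragments. The fatty livers were again below every control. The log2 fold change of IGFBP2 was -2.57 (adjusted p = 0.037). The adjusted p was 0.098 without control replicate 2 and 0.065, 0.11 and 0.11 without fatty liver replicates 1, 2 and 3. It was 0.11 without the filter on low values and 0.089 with voom. IGFBP2 entered the test through the controls, since each fatty liver was under 1 FPKM. IGFBP1, the most abundant gene of this list, had 250 ± 70.6 FPKM in the controls and 104 ± 26.5 FPKM in the fatty livers (a log2 difference of -1.24, adjusted p = 0.075). IGF1 was listed at 0 in all 6 libraries, and whether it was not expressed or not counted under its gene ID cannot be told apart. The median log2 fold change of the list was -0.32, with 3 values above 0 and 7 below, and after rescaling it was -0.45, with 1 above and 9 below. With voom 0 genes of this list passed, against 98 of all 10886 tested genes. In limma 5 genes of the list had an unadjusted p under 0.05, against 16.3% of all tested genes.

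The thyroid's own genes served as a check for tissue other than liver. Of the 11 genes of thyroid hormone synthesis and its pituitary and hypothalamic control in the table, 7 were at or under 3 fragments in every library. Of these, 3 were listed at 0, CGA and TRHR among them. For a gene listed at 0, absent expression and absent counting under its ID cannot be told apart. Only IYD, which recovers iodide from iodotyrosines, had a mean of at least 1 FPKM, with 6.17 ± 2.32 FPKM in the controls and 11.9 ± 2.70 FPKM in the fatty livers (log2 fold change 0.88, limma adjusted p = 0.17).

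Genes whose level ran most like that of a member over the 6 libraries were found by Pearson's r of log2(FPKM + 1), given as a description since the 6 points fall into the 2 groups. For DIO3 they were LOC415478 (r = 0.99), WDR86 (r = 0.99), ENPP4 (r = 0.98), ANKRD12 (r = 0.98) and HS1BP3 (r = 0.98). WDR86 shared the low control replicate 1 and the deep fall, with 5.37, 16.1 and 19.4 FPKM in control replicates 1, 2 and 3 and 0.890, 1.10 and 1.47 FPKM in fatty liver replicates 1, 2 and 3 (limma adjusted p = 0.031). For THRSP they were LOC418421, NMD3, HPDL, RITA1 and a gene that the gene table does not name, with r between 0.98 and 0.99. For THRSPB they were UBE2H, GOSR2, DGAT2, GINS1 and SLC25A47, with r between 0.99 and 1.00. DGAT2, which makes triglyceride, had 0.402, 0.471 and 1.25 FPKM in control replicates 1, 2 and 3, and thus shared the high control replicate 3 of THRSPB. In fatty liver replicates 1, 2 and 3 it had 2.21, 1.91 and 1.91 FPKM (adjusted p = 0.12). DGAT2 entered the test through the fatty livers, since its control mean was 0.709 FPKM. So did GINS1, LOC418421 and HPDL, with control means of 0.670, 0.801 and 0.942 FPKM.

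The neighbours of the members in the gene table were read for the same birds. DIO3 lies between DLK1 and PPP2R5C among protein-coding genes. DLK1 had at most 2 fragments in any library. PPP2R5C, a subunit of protein phosphatase 2A, had 7.57 ± 1.57 FPKM (SD, n = 3 birds) in the controls and 9.02 ± 0.776 FPKM in the fatty livers, with overlapping groups (log2 fold change 0.24, limma adjusted p = 0.56). THRSP and THRSPB lie next to each other with no gene between them, flanked by LOC101748650 on the side of THRSPB and by KCTD14 on the side of THRSP. LOC101748650 had 12.9, 23.3 and 30.8 FPKM in control replicates 1, 2 and 3 and 131, 83.5 and 33.4 FPKM in fatty liver replicates 1, 2 and 3. The groups did not overlap, although fatty liver replicate 3 was close to the highest control, and the log2 fold change was 1.72 (standard error 0.49, adjusted p = 0.14). KCTD14 had 1.71 ± 0.343 and 2.93 ± 1.18 FPKM in the controls and fatty liver, with overlapping groups (adjusted p = 0.34).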

How the data were processed

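Liver mRNA of 3 control birds and 3 birds with fatty liver was enriched by poly(A) selection and sequenced on an Illumina instrument. Per the paper's methods, Sickle and SeqPrep removed low-quality sequence, and the clean reads were mapped to Gallus_gallus_5.0. The authors deposited the result as FPKM, and no scaling beyond that is stated. The aligner, the counter, the annotation and the use of strand are not given in the sources used here. Gene symbols, neighbours and overlapping genes, but no positions, were read from RefSeq's table for another assembly (bGalGal1.mat.broiler.GRCg7b). It held 16332 of the deposited IDs. Genes of the lists were matched by symbol alone.

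Groups were compared on log2(FPKM + 1) by limma 3.58.1 (R 4.3.3), with a mean-variance trend, no covariate, a minimum mean of 1 FPKM and Benjamini-Hochberg adjustment at 0.05. Whole fragments were recovered from the ratios between libraries and gave back 100% of the values above 0 within a relative error of 1e-06. Their totals set the precision at low levels. The p-values of limma set the difference of the group means against the spread between birds, with 3 birds per group. That spread is pooled over both groups and moderated by a trend over all tested genes. Both steps were also run on simulated data. For limma the simulated noise was normal and alike in both groups. That run therefore does not cover a gene at the floor in the fatty livers alone, such as DIO3.

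The members, lists and markers were chosen with earlier results of these data known. The text names all members, the list genes that passed, the most abundant and the smallest-p gene of each list, the 5 genes most like DIO3, THRSP and THRSPB, and the adjacent genes. Some genes listed at 0, the loci that overlap a member and the marker gene that passed are named too. CYP7A1 and PCK1, in a figure caption, were named after their values were seen. Others are marked where they appear. Alternatives changed the pseudocount (0.1), dropped the filter, set equal medians, normalized quantiles, rescaled by all but the 50 most abundant genes, dropped the trend, made limma robust, took the replicate number as a block, used voom on the fragments, or left out each library.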

Additional observations from a re-analysis of the deposited data

How the results depend on the processing

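Of the 15 alternatives, DIO3 passed in 11 and THRSP in 10, always in the same direction, THRSPB passed in 2, and DIO1, DIO2, TTR, THRA and THRB passed in 0. DIO3 did not pass without the filter (log2 fold change -4.95) or with voom (-7.56), and THRSP did not pass without the filter (2.82), with libraries scaled to the same median (2.68) or with voom (2.68). With each library left out in turn, the log2 fold change was between -5.76 and -4.36 for DIO3, 2.37 and 3.18 for THRSP, 1.47 and 2.13 for THRSPB, and -0.30 and 0.21 for DIO1. The sign of DIO1 also turned with equal medians (-0.12), quantiles made equal (-0.14), rescaling (-0.14) and voom (-0.12). Left-out libraries put SLCO1A2 between -7.7e-04 and 0.45 and TRNAU1AP between -0.40 and 0.028. The cause was not tested for any of these.

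The number of genes called, 124 in all, was 30 without the filter, with more genes tested (17185), 79 with libraries scaled to the same median, and between 22 and 119 with a library left out (77 without control replicate 1, 36 without control replicate 2, 24 and 22 without fatty liver replicates 2 and 3). The share of higher genes fell from 92 of 124 to 44 of 84 after rescaling.

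The replicate number as a block gave 140 genes called and put THRSPB at an adjusted p of 0.043 (log2 fold change 1.71). Same-numbered birds are different animals, and their deviations from the group means correlated at 0.02, 0.04 and 0.05 across genes. With 3 birds per group these values cannot decide whether the numbers stand for a shared handling step. Control replicate 1 correlated best with fatty liver replicate 2, at 0.06. A level of 3 fragments or fewer, as for DIO3 in fatty liver, says only that more was not detectable at this depth.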
